A study of Mus musculus with 15 samples.

Results

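The genes described here are 35 genes of the unfolded protein response and of the response to amino acid shortage. They were taken by gene symbol from a list, and each of the 35 matched 1 row of the 45706 genes in the deposited table. Their transcripts were measured in cultured lymphatic endothelial cells, the cells that line lymphatic vessels and lymph node sinuses. The cells were Pdpn+ CD31+ CD45- cells of female C57Bl/6 mice, pooled from axillary, brachial, cervical, inguinal and popliteal nodes. Cultures were left without VEGF-C, or received 10 or 100 ng/mL of purified recombinant murine VEGF-C made in HEK-293E cells, and were collected after 72 h. VEGF-C, a lymphatic growth factor, signals mainly through the receptor Flt4. Each group held 5 poly-A libraries, lettered A to E. All cells had been grown in serum-containing MEMα medium, and the labels give no age of the mice and do not say whether a group's libraries are separate cultures. The p-values therefore measure the spread among these libraries, and that spread may be technical.

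The endoplasmic reticulum (ER) folds secreted and membrane proteins, and 3 sensors watch over it. The sensor IRE1, encoded by Ern1, splices the mRNA of the transcription factor Xbp1, and the sensor Atf6 is cut to release a transcription factor; both raise ER chaperones and the machinery that disposes of misfolded proteins. The sensor PERK, like the amino acid sensor GCN2, phosphorylates the translation factor eIF2, which lowers protein synthesis but favours translation of Atf4. This branch is called the integrated stress response, and ATF4 raises genes that make, import and charge amino acids. Translation of Atf4, splicing of Xbp1 and cutting of Atf6 change proteins or isoforms, and gene-level transcript counts do not measure them.

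The members were grouped by role into 7 regulators of the integrated stress response, 9 genes of amino acid synthesis and charging, 3 other ATF4 targets, 3 ER stress sensors and transcription factors, 9 ER chaperones and folding factors, and 4 genes of ER-associated degradation. Levels are given as CPM, counts relative to the TMM-scaled library size, as mean ± SD of 5 libraries. A gene is called changed where the adjusted p of edgeR's quasi-likelihood test, with Benjamini-Hochberg adjustment over the 17650 genes tested, was under 0.05. Log2 fold changes carry their standard error where a gene is described library by library. Gene coordinates are those of the deposited table, on GRCm38. Of the members, 34 passed the filter on low counts. The other was Phgdh, the first enzyme of serine synthesis, with 2.44 to 10.11 estimated counts per library; its level was 0.0597 to 0.217 CPM in unstimulated libraries and 0.131 to 0.365 at 100 ng/mL. Phgdh has 19 similar gene models, most of them processed pseudogenes, so that its few reads are uncertain.

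Libraries held between 27784906 and 38590841 estimated counts. On the second principal component unstimulated E lay at -41.1, 10 ng/mL D at -28.2 and 100 ng/mL B at -45.1, where the other libraries lay between -5.52 and 30.8. Results that rest on these 3 libraries are given with and without them, a setting chosen after seeing the data. They were also the highest of their groups for most chaperones. Leaving out the highest library of a group narrows its spread by construction. Adjusted p-values from that setting are therefore a description and no added evidence. Against the label, Prox1, Lyve1, Flt4, Pecam1, Cdh5 and Pdpn were all present, at group means between 92.4 and 3449.9 CPM, while Ccl21a had less than 1 estimated count in each of the 10 libraries without 100 ng/mL. Summed lymphatic endothelial markers lay at 7684 to 9795 CPM in unstimulated libraries, 9283 to 9862 at 10 ng/mL and 10496 to 15299 at 100 ng/mL. Of these, 7 of 11 tested rose at 100 ng/mL, where 21.4% of all genes rose and 21.5% fell. Summed fibroblastic and mural markers lay at 2060 to 3710.0 CPM in unstimulated libraries, 1622 to 3620.2 at 10 ng/mL and 164 to 615 at 100 ng/mL, and 12 of 14 tested fell at 100 ng/mL. Summed leukocyte markers lay at 56.7 to 156, 48.7 to 128 and 26.5 to 47.3 CPM, and 10 of 12 fell, with Cd3e and Cd79a at or near 0. Summed over 8 plasma cell genes, levels lay at 22.6 to 39.7, 17.5 to 34.5 and 15.9 to 24.8 CPM; of the 2 tested, Sdc1 fell (-0.74, adjusted p = 0.00837) and Prdm1 rose (2.43, adjusted p = 0.000164), and the other 6, Jchain and Igkc among them, were at or near 0. Of 13 mitochondrially encoded genes 10 rose, and their sums lay at 8939 to 12907, 12921 to 16909 and 12409 to 17217 CPM. The part of these shifts in the results below was not tested, and in bulk RNA fewer cells of a type and less RNA per cell cannot be told apart.

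At 100 ng/mL the module fell more often than it rose, by modest amounts. Of the 34 members tested against unstimulated, 16 fell, 2 rose and 16 were not called, that is 52.9% called where 42.9% of all genes were called (21.5% lower, 21.4% higher). Their median log2 fold change was -0.26, and that of all genes tested 0.01. Vldlr was the 1 member called with a change of at least 2-fold. The 5 libraries of both groups did not overlap for 7 members, all lower, and for 27.2% of all genes (13.7% lower, 13.5% higher). At 10 ng/mL no member was called, and no gene at all.

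**Figure D1:**
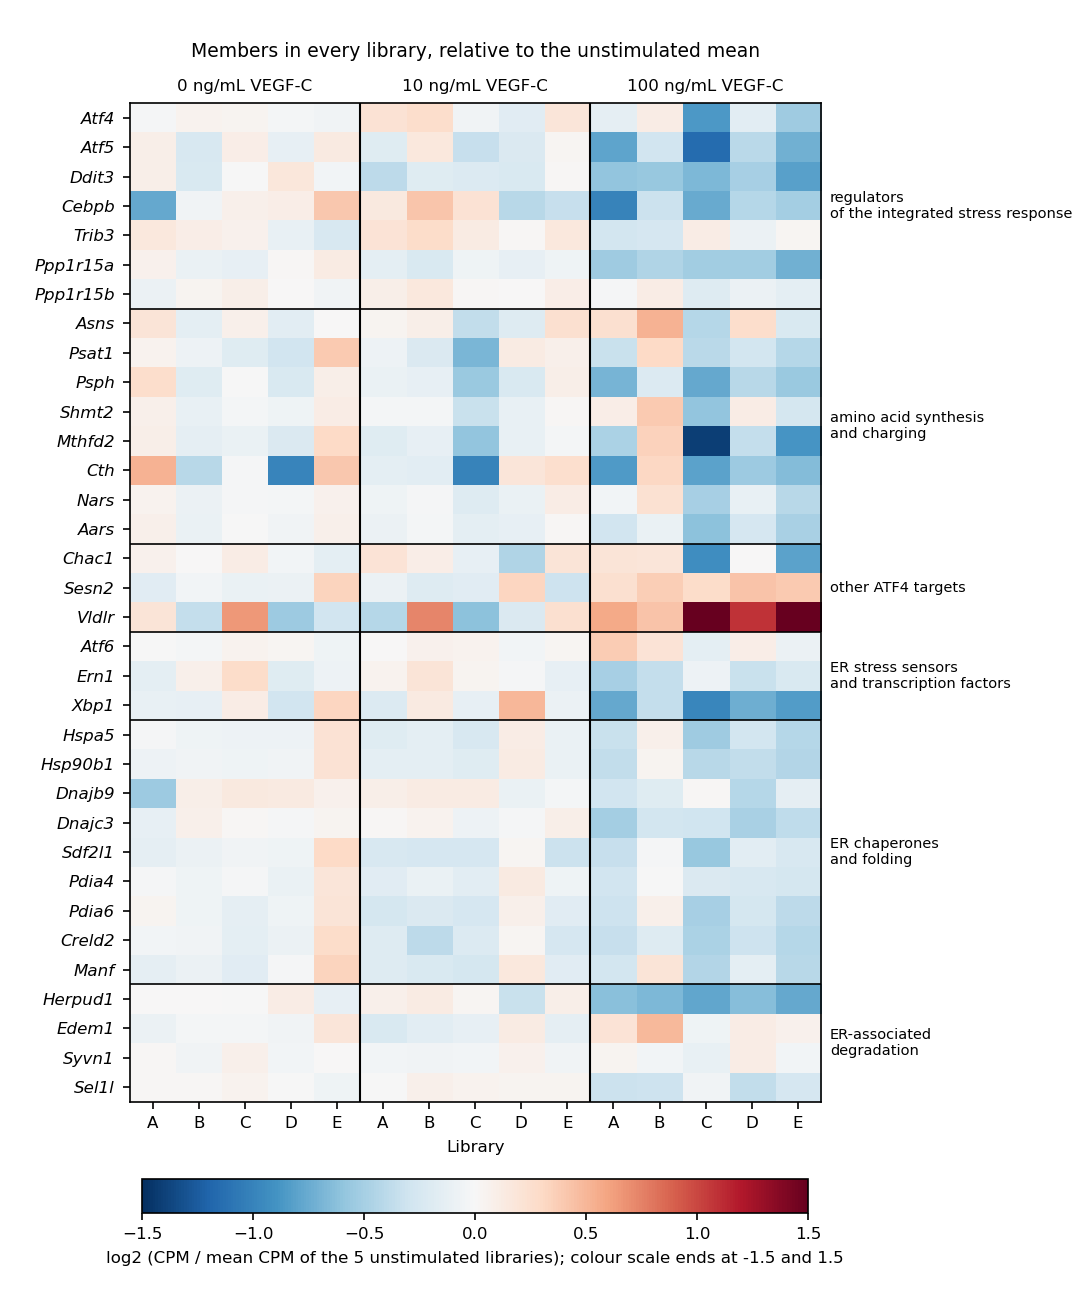
Colour gives the log2 ratio of each member's CPM (rows, 34 tested members by role) in each library (columns) to the mean of the 5 unstimulated libraries. The 100 ng/mL libraries are blue for Ddit3, Ppp1r15a, Xbp1 and Herpud1, and the chaperone rows are palest or red in library E of the unstimulated group, D of the 10 ng/mL group and B of the 100 ng/mL group.

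**Figure D2:**
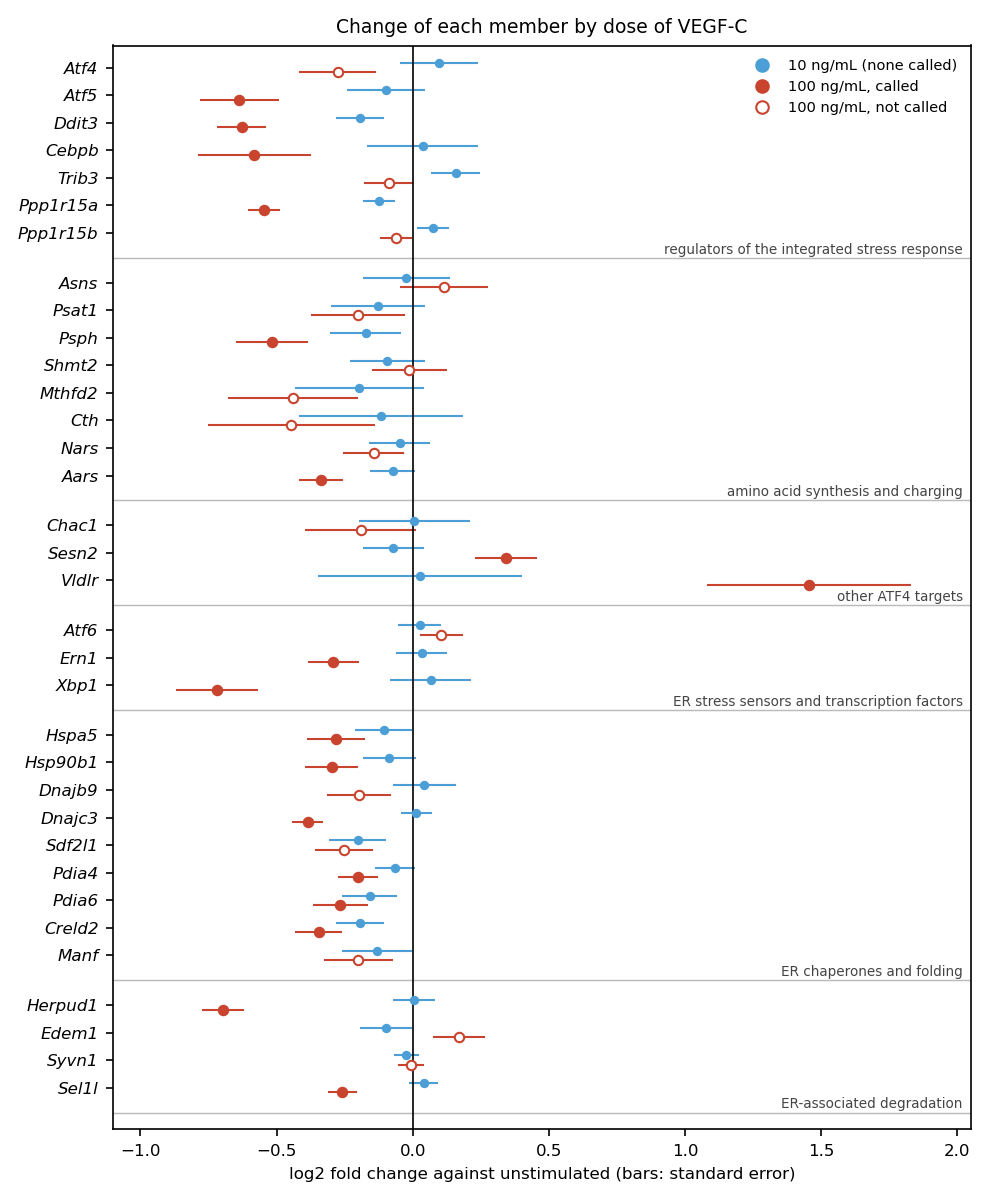
Points give the log2 fold change of each tested member against unstimulated at 10 ng/mL (blue) and 100 ng/mL (red, filled where called), and bars the standard error. At 100 ng/mL 29 of 34 members lie below 0, and 16 of these are called.

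Among the regulators of the integrated stress response, 4 of 7 fell at 100 ng/mL and none rose, where 21.5% of all genes fell. The list median was -0.55. Ppp1r15a (ENSMUSG00000040435, chr7:45522914-45526268, minus strand) encodes GADD34, the stress-induced subunit that brings a phosphatase to eIF2. It measured 147, 131, 129, 141 and 152 CPM in unstimulated libraries A to E, 127, 119, 133, 128 and 134 at 10 ng/mL and 96.7, 102, 97.5, 97.2 and 85.0 at 100 ng/mL. Every 100 ng/mL library lay below every library of the other groups, and the log2 fold change against unstimulated was -0.55 ± 0.06 (SE), adjusted p = 4.03e-06 in edgeR. Its constitutive counterpart Ppp1r15b did not pass, at 130.3 ± 6.41 CPM and 125 ± 10.6 CPM (-0.06, adjusted p = 0.437).

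Ddit3 (ENSMUSG00000025408, chr10:127290772-127296288, plus strand) encodes CHOP, a transcription factor tied to cell death under lasting stress. Its levels were 14.2, 11.3, 13.2, 14.9 and 12.9 CPM in unstimulated libraries, 10.1134, 11.8, 11.5, 11.3 and 13.4 at 10 ng/mL and 8.81, 8.95, 8.32, 9.42 and 7.57 at 100 ng/mL. The 100 ng/mL group again lay wholly below both others, while the other 2 groups overlapped, and the change was -0.63 ± 0.09 (SE), adjusted p = 5.35e-05 in edgeR. Exons of Ddit3 share 68 bases with Mars on the opposite strand, and Mars was not called (-0.16, adjusted p = 0.297).

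Atf5 (ENSMUSG00000038539, chr7:44812255-44816658, minus strand), a transcription factor that is translated under the same control as Atf4, measured 72.6, 58.1, 73.5, 62.6 and 75.1 CPM in unstimulated libraries, 60.1, 76.5, 54.0, 59.0 and 69.7 at 10 ng/mL and 39.7, 56.2, 30.8, 51.7 and 41.6 at 100 ng/mL. Unstimulated and 100 ng/mL libraries did not overlap, though 100 ng/mL B came within 2 CPM of the lowest unstimulated library, and the change was -0.64 ± 0.14 (SE), adjusted p = 0.00233 in edgeR. Cebpb, a stress and inflammation transcription factor that pairs with ATF4 and CHOP, fell from 31.6 ± 8.39 CPM to 21.1 ± 3.85 CPM (-0.58, adjusted p = 0.0336). That call was lost under 8 of 24 alternatives, at adjusted p between 0.0502 and 0.0894. Exons of Atf5 share 82 bases with Nup62, and those of Cebpb 312 with Tmem189, neither of which was called.

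Atf4 itself (ENSMUSG00000042406, chr15:80255182-80257540, plus strand) did not pass against unstimulated (-0.28, adjusted p = 0.136). It measured 361, 380.1, 376, 359.7 and 353 CPM in unstimulated libraries, 427, 438, 354, 325 and 414 at 10 ng/mL and 333, 395, 202, 329 and 252 at 100 ng/mL. Unstimulated libraries had an SD of 11.4 CPM, whereas the 100 ng/mL libraries ran from 100 C, the lowest of all 15, to 100 B, which lay above every unstimulated library. Without 100 ng/mL B the change was -0.39 with adjusted p = 0.0279, and without the 3 libraries -0.40, adjusted p = 0.0267. Atf4 was called under these 2 of 24 alternatives alone. Over the 24 its change ran from -0.40 to -0.16, with adjusted p up to 0.277. Trib3, a pseudokinase that ATF4 and CHOP induce and that restrains them, measured 182 ± 20.5 CPM, 203 ± 13.3 CPM and 171 ± 20.4 CPM and was not called against unstimulated (-0.09, adjusted p = 0.462).

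In amino acid synthesis and charging, 2 of 8 tested genes fell at 100 ng/mL and none rose. That is 25% of the list, near the 21.5% of all genes that fell. The list median was -0.27, and 7 of 8 had a negative log2 fold change. Psph (ENSMUSG00000029446, chr5:129765556-129787449, minus strand), the last enzyme of serine synthesis, measured 27.3, 20.1, 22.8, 19.4 and 24.3 CPM in unstimulated libraries, 21.3, 20.9, 15.5, 19.4 and 24.2 at 10 ng/mL and 14.0, 19.8, 13.4, 17.0423 and 15.5 at 100 ng/mL. Library 100 B overlapped the unstimulated range and the other 4 lay below it, with a change of -0.52 ± 0.13 (SE), adjusted p = 0.00522 in edgeR. Exons of Psph share 452 bases with Cct6a on the opposite strand, a gene of far higher count that rose (0.25, adjusted p = 0.025), and the counter's use of strand is unknown here.

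Aars (ENSMUSG00000031960, chr8:111033142-111057664, plus strand), which loads alanine onto its tRNA, measured 249, 219, 235, 226 and 248 CPM in unstimulated libraries, 221, 231, 213, 215 and 238 at 10 ng/mL and 193, 220.2, 153, 197 and 168 at 100 ng/mL. Library 100 B, at 220 CPM, reached just above the lowest unstimulated library, B, at 219 CPM, and the change was -0.34 ± 0.08 (SE), adjusted p = 0.00379 in edgeR. Exosc6 lies on the same strand within the Aars exons over 1326 bases, so part of this count may be its reads.

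The other 6 tested genes of the list were not called. Asns, which makes asparagine and is a standard readout of ATF4, measured 67.5 ± 6.95 CPM and 73.1 ± 19.1 CPM (0.11 ± 0.16 (SE), adjusted p = 0.606). Psat1, the middle enzyme of serine synthesis, measured 75.007 ± 14.4 CPM and 65.3 ± 15.2 CPM (-0.20, adjusted p = 0.379), and the count of a processed pseudogene with 91.0% identity reached 29.0% of its own. Shmt2 and Mthfd2, which pass one-carbon units from serine through mitochondrial folate, had changes of -0.01, adjusted p = 0.951, and -0.44, adjusted p = 0.155. Cth, which makes cysteine, lay between 1.96 and 5.66 CPM in all libraries (-0.45, adjusted p = 0.265). Nars, which loads asparagine onto its tRNA, measured 249 ± 10.9 CPM and 225 ± 46.6 CPM (-0.14, adjusted p = 0.327).

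The same libraries were high or low for most of these enzymes. In the 100 ng/mL group, library B was the highest for 8 of 8 tested amino acid genes and library C the lowest for 6, and in the 10 ng/mL group library C was the lowest for 8. Mthfd2 showed the spread most plainly, at 33.0, 58.5, 17.3, 35.7 and 24.9 CPM in 100 ng/mL libraries A to E against 39.6 to 56.5 in unstimulated ones. Without 100 ng/mL B, 4 of the 8 genes were called lower, Mthfd2 (-0.73, adjusted p = 0.00522) and Nars (-0.25, adjusted p = 0.0367) in addition to Psph and Aars. In that setting 7876 of all 17775 genes tested were called in either direction, 49.1% of them higher. Without 100 ng/mL C, the lowest for 6 of the 8 genes, 2 of the 8 were called lower.

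Of the other ATF4 targets 2 of 3 rose at 100 ng/mL, where 21.4% of all genes rose, and these were the 2 members called higher. Vldlr (ENSMUSG00000024924, chr19:27216482-27254231, plus strand), a receptor of lipoproteins, measured 15.3, 10.386, 20.8, 9.12 and 10.9 CPM in unstimulated libraries, 9.89, 22.2, 8.67, 11.4 and 15.7 at 10 ng/mL and 19.7, 17.9, 62.3, 28.2 and 54.3 at 100 ng/mL. Libraries 100 C and 100 E stood far above the rest, 100 A and 100 B overlapped the unstimulated range, and the change was 1.46 ± 0.38 (SE), adjusted p = 0.00563 in edgeR. Library 100 C, the highest for Vldlr, was the lowest for 6 of the 8 amino acid genes, and 100 B, the lowest for Vldlr, was the highest for all 8.

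Sesn2 (ENSMUSG00000028893, chr4:132492030-132510501, minus strand), a leucine-binding restraint on mTORC1, measured 61.7, 67.5, 64.7, 65.2 and 87.3 CPM in unstimulated libraries, 65.3, 60.5, 61.4, 86.4 and 56.0 at 10 ng/mL and 81.8, 89.6, 84.0, 93.3 and 90.6 at 100 ng/mL. Unstimulated E and 10 ng/mL D reached the 100 ng/mL range and the other 8 libraries of these groups lay below it. The change was 0.34 ± 0.11 (SE), adjusted p = 0.023 in edgeR. That call was lost under 5 of 24 alternatives, without unstimulated A, C or D or 100 ng/mL D and with library size alone, at adjusted p between 0.0501 and 0.0631, and without the 3 libraries the change was 0.43, adjusted p = 6.03e-05. Chac1, which breaks down glutathione, measured 11.6 ± 0.770 CPM and 10.1254 ± 3.53 CPM and was not called (-0.19, adjusted p = 0.486).

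**Figure D3:**
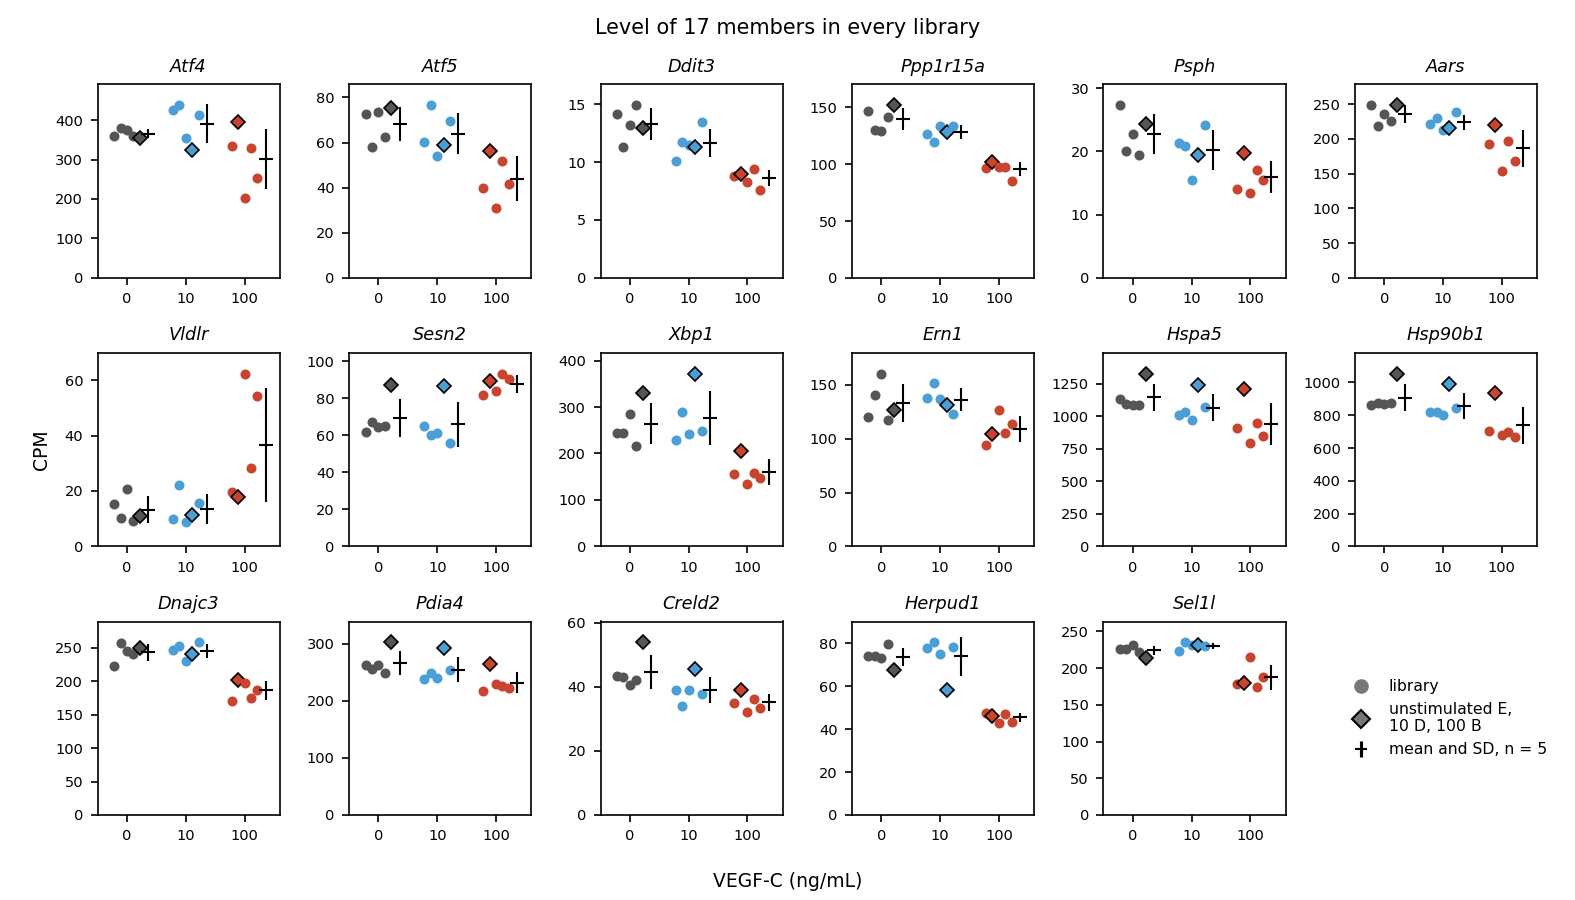
Each point is the CPM of a library at 0, 10 or 100 ng/mL for 17 members, diamonds mark the 3 libraries apart on the second principal component, and the black bars give mean and SD (n = 5). Ppp1r15a, Xbp1, Herpud1 and Dnajc3 lie lower at 100 ng/mL with no overlap, and Hspa5 and Hsp90b1 overlap through the diamond of the 100 ng/mL group.

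Of the ER stress sensors and transcription factors 2 of 3 fell at 100 ng/mL, where 21.5% of all genes fell. Xbp1 (ENSMUSG00000020484, chr11:5520657-5525893, plus strand) measured 244, 243, 286, 217 and 329.8 CPM in unstimulated libraries, 229, 290.3, 242, 372 and 248 at 10 ng/mL and 155, 206, 133, 158 and 148 at 100 ng/mL. The 100 ng/mL libraries lay below all 10 others, with 100 B nearest to them, and the change of -0.72 ± 0.15 (SE), adjusted p = 0.00132 in edgeR, was the largest fall in the module. Ern1 (ENSMUSG00000020715, chr11:106394648-106487852, minus strand) measured 120.1, 140.4, 160.5, 118 and 127 CPM in unstimulated libraries, 138, 152, 137, 132 and 123 at 10 ng/mL and 94.1, 104, 126, 105 and 114 at 100 ng/mL. Library 100 C overlapped the unstimulated range, and the change was -0.29 ± 0.09 (SE), adjusted p = 0.0206, lost without unstimulated C (0.0594) or 100 ng/mL A (0.0567). Atf6 was not called, at 111 ± 3.54 CPM and 119 ± 18.0 CPM (0.11, adjusted p = 0.314).

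Of the 9 ER chaperones and folding factors 6 fell at 100 ng/mL and 3 were not called, where 21.5% of all genes fell. The log2 fold changes of all 9 were negative, between -0.39 and -0.20. Hspa5 and Hsp90b1 were the members of highest level per transcript length in unstimulated cells, at 146 ± 15.5 and 144 ± 14.99 RPKM, followed by Atf4 at 114 ± 2.81 RPKM. Dnajc3 (ENSMUSG00000022136, chr14:118937930-118981702, plus strand), a co-chaperone that also inhibits eIF2 kinases, measured 223, 257, 246, 241 and 250.3 CPM in unstimulated libraries, 246, 252, 231, 240.2 and 258 at 10 ng/mL and 171, 202, 197, 174 and 187 at 100 ng/mL. Its 100 ng/mL libraries lay below all others (-0.39 ± 0.06 (SE), adjusted p = 6.39e-05 in edgeR).

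Hspa5 (ENSMUSG00000026864, chr2:34771968-34777547, plus strand), which encodes BiP, the main ER chaperone and a restraint on the sensors, measured 1130.0, 1097, 1086, 1090.0 and 1326 CPM in unstimulated libraries, 1007, 1032, 973, 1238 and 1069 at 10 ng/mL and 912, 1209, 793, 948 and 851 at 100 ng/mL. Each group had 1 high library, E in the unstimulated, D in the 10 ng/mL and B in the 100 ng/mL group, and without 100 B the 100 ng/mL libraries lay below the unstimulated range. The change was -0.28 ± 0.11 (SE), adjusted p = 0.0428 in edgeR, and the call was lost under 11 of 24 alternatives. Without the 3 libraries it was -0.33, adjusted p = 0.000633.

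Hsp90b1 (ENSMUSG00000020048, chr10:86690207-86705509, minus strand), which encodes GRP94, the ER form of HSP90, measured 860.2, 877, 870.0, 877 and 1053 CPM in unstimulated libraries, 819, 821, 799.6, 992 and 845 at 10 ng/mL and 705, 937, 679, 700.3 and 668 at 100 ng/mL. The same 3 libraries were the highest of their groups, and the change was -0.30 ± 0.10 (SE), adjusted p = 0.0224 in edgeR. Without them it was -0.34 ± 0.04 (SE), adjusted p = 2.53e-05 in edgeR, where taking out each group's highest library narrows the spread by construction. The call was lost without unstimulated E (0.0588) or 100 ng/mL E (0.0585). Its exons share 415 bases with 1810014B01Rik (-0.28).

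Creld2 (ENSMUSG00000023272, chr15:88819644-88826681, plus strand), a secreted ER stress protein, measured 43.5, 43.1, 40.4, 42.1 and 53.9 CPM in unstimulated libraries, 38.9, 34.0, 38.8, 45.5 and 37.6 at 10 ng/mL and 35.0359, 39.0, 32.1, 36.1 and 33.3 at 100 ng/mL. Unstimulated and 100 ng/mL libraries did not overlap, and the 10 ng/mL libraries spread over both (-0.35 ± 0.09 (SE), adjusted p = 0.00523 in edgeR). Pdia4 (ENSMUSG00000025823, chr6:47796140-47813512, minus strand), a disulfide isomerase, measured 263, 256, 262, 249 and 303 CPM in unstimulated libraries, 238, 249, 239, 292 and 255 at 10 ng/mL and 218, 265, 229, 226 and 222 at 100 ng/mL. Library 100 B lay among the unstimulated libraries and the other 4 below them (-0.20 ± 0.07 (SE), adjusted p = 0.0373), and the call was lost under 8 of 24 alternatives.

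Pdia6, another disulfide isomerase, fell from 417 ± 37.3 CPM to 347 ± 54.9 CPM (-0.27, adjusted p = 0.0457), a call lost under 13 of 24 alternatives. Dnajb9, a co-chaperone of BiP that restrains IRE1, Sdf2l1, a partner of BiP, and Manf, a secreted ER stress protein, were not called (-0.20, adjusted p = 0.2; -0.25, adjusted p = 0.0683; -0.20, adjusted p = 0.233). Dnajb9 had 1 low unstimulated library, A at 31.3 CPM where the other 4 lay between 47.8 and 50.7. Without that library Dnajb9 was called (-0.31, adjusted p = 0.00688 in edgeR), and under the other 23 of 24 alternatives it was not. Leaving out the lowest unstimulated library widens the fall and narrows the spread by construction. The count of a pseudogene with 93.3% identity reached 41.0% of that of Dnajb9.

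The number of chaperones called depended on single libraries. It was 8 of 9 without 100 ng/mL B, 3 without 100 ng/mL A, C or D, and 2 without unstimulated E or without 100 ng/mL E. The highest library of its group was unstimulated E for 7 of the 9 chaperones, 10 ng/mL D for 7 and 100 ng/mL B for 8. Without these 3 libraries 8 of 9 fell, all but Dnajb9, with a median of -0.31. In that setting 46.7% of 17618 genes were called in either direction, and 49.6% of the called genes were higher.

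Of the 4 genes of ER-associated degradation 2 fell at 100 ng/mL, where 21.5% of all genes fell. Herpud1 (ENSMUSG00000031770, chr8:94386436-94395377, plus strand), a stress-induced organizer of the degradation complex, measured 74.3, 74.0, 73.1, 79.6 and 67.5 CPM in unstimulated libraries, 77.7, 80.5, 74.9, 58.2 and 78.2 at 10 ng/mL and 47.6, 46.3, 43.1, 47.2 and 43.1 at 100 ng/mL. The 100 ng/mL libraries, with an SD of 2.20 CPM, lay below all 10 others, and the change was -0.70 ± 0.08 (SE), adjusted p = 4.68e-06 in edgeR. Within their groups Herpud1 was lowest in unstimulated E and in 10 ng/mL D, the libraries that were highest for 7 of the 9 chaperones each.

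Sel1l (ENSMUSG00000020964, chr12:91806041-91849157, minus strand), the scaffold of the same complex, measured 226, 226, 232, 222 and 214 CPM in unstimulated libraries, 224, 235, 231, 231 and 229.6 at 10 ng/mL and 179, 179.9, 216, 174 and 188 at 100 ng/mL. Library 100 C overlapped the unstimulated range and the other 4 lay below it (-0.26 ± 0.05 (SE), adjusted p = 0.00124 in edgeR). Syvn1, the ubiquitin ligase that Sel1l holds, measured 84.4 ± 3.07 CPM and 84.0 ± 5.31 CPM (-0.01 ± 0.05 (SE), adjusted p = 0.918). Edem1, which picks misfolded glycoproteins for disposal, measured 127 ± 9.94 CPM and 143 ± 21.5 CPM and was not called against unstimulated (0.17, adjusted p = 0.167).

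The ATF4 amino acid genes and the ER chaperones had nearly the same median change at 100 ng/mL, -0.27 in each list. How close they were varied with the setting. Amino acid genes first, the medians were -0.22 and -0.28 with no filter, and -0.23 and -0.29 without unstimulated A. They were -0.38 and -0.37 without 100 ng/mL B, -0.22 and -0.23 without 100 ng/mL C, and -0.31 in each list without the 3 libraries. The mean log2(CPM + 1) over the 9 amino acid genes was 5.21 ± 0.16 in unstimulated libraries, 5.11 ± 0.18 at 10 ng/mL and 4.99 ± 0.30 at 100 ng/mL (SD, n = 5). That over the 9 chaperones was 7.53 ± 0.12, 7.43 ± 0.09 and 7.26 ± 0.14. The amino acid mean minus the chaperone mean was -2.32 ± 0.16, -2.32 ± 0.17 and -2.27 ± 0.18, so that the difference between 100 ng/mL and unstimulated, 0.05, was smaller than the SD of any group. It ran from 0.0079 without 100 ng/mL B to 0.12 without unstimulated A, and was -0.00089 without the 3 libraries. The amino acid mean includes Phgdh, which did not pass the filter, and the median of -0.27 does not. Phgdh averaged 0.16 CPM in unstimulated libraries and 0.24 CPM at 100 ng/mL. No setting for the means left Phgdh out, and its part in the difference was not tested. No p is given for these means, since the genes were chosen with results of these data known. The lists differed in precision, with a median standard error of the log2 fold change of 0.15 for the amino acid genes and 0.10 for the chaperones.

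**Figure D4:**
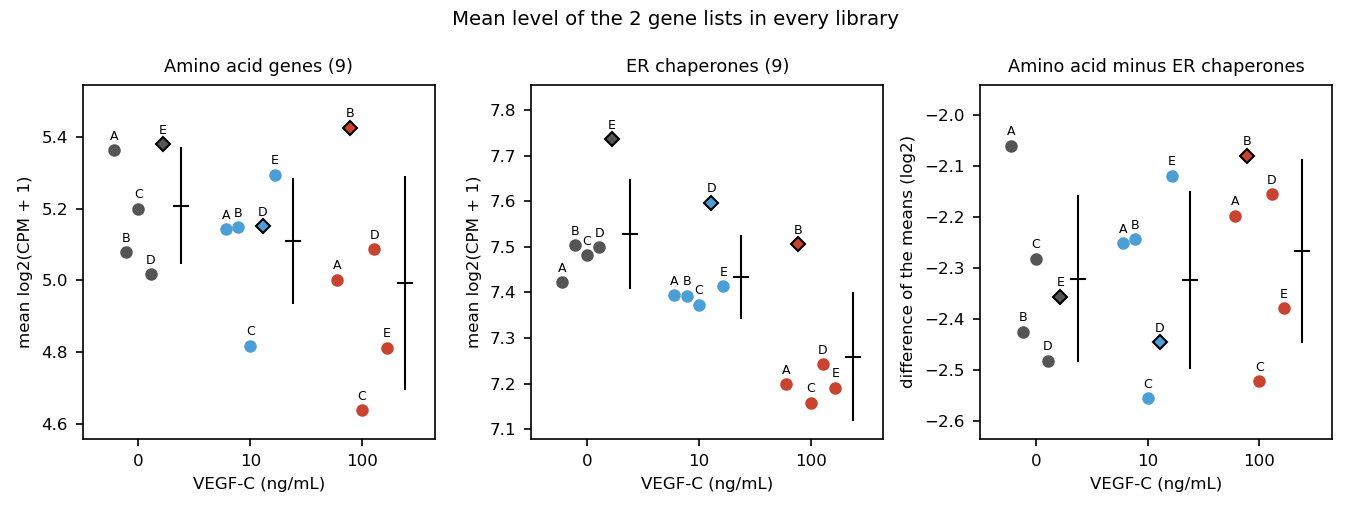
Points give, for each library (letters), the mean log2(CPM + 1) of the 9 amino acid genes, of the 9 ER chaperones, and the difference of these means, with black bars for mean and SD (n = 5). Diamonds mark the 3 libraries that were highest for the chaperones. The differences of all 15 libraries lie between -2.56 and -2.06, and the 3 doses overlap.

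**Figure D5:**
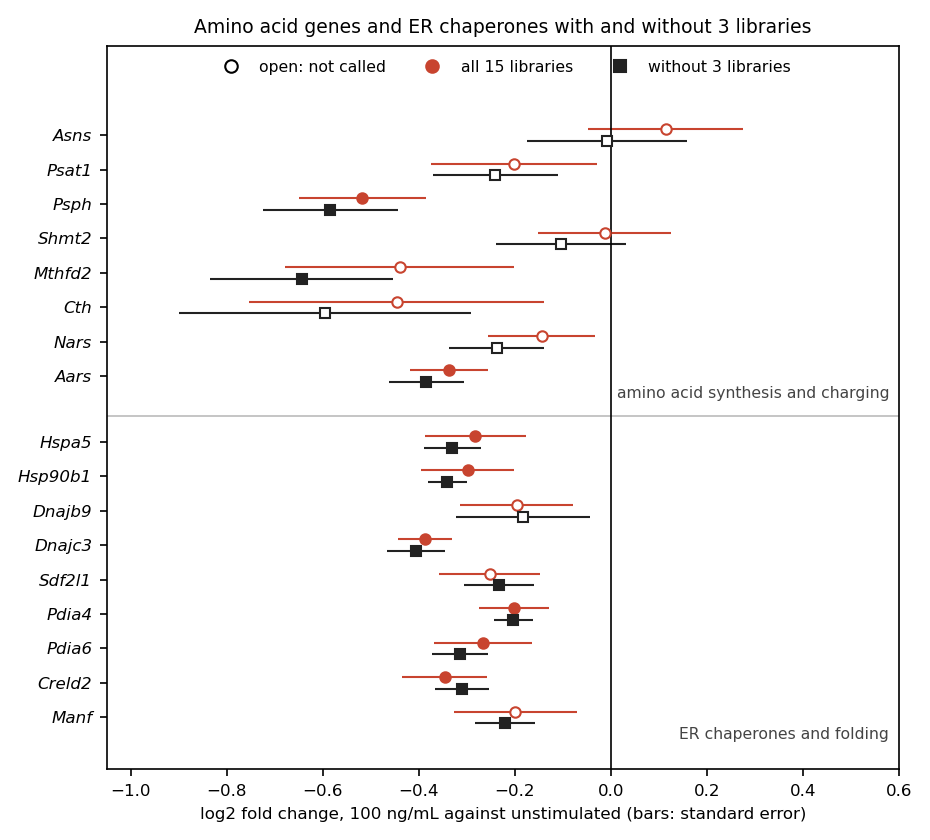
Log2 fold changes at 100 ng/mL against unstimulated (points, bars standard error) are shown with all 15 libraries (red circles) and without the 3 libraries apart on the second principal component (black squares), filled where called. Filled points rise from 6 to 8 of 9 chaperones and from 2 to 3 of 8 amino acid genes.

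Known response elements were looked for in RefSeq promoters (GRCm38.p6, 250 bases before to 50 after each start), which held 30 of the 35 members. The ATF4 element CARE (TGATGNAA, either strand) was in 3.969% of all 32851 promoters and in 6 of the 30 members, among them Asns, Chac1, Herpud1, Trib3 and Vldlr. The ER stress element ERSE (CCAAT and CCACG 9 bases apart, either strand), bound by ATF6 and XBP1 with NF-Y, was in 0.119% of all promoters and in 6 members, Creld2, Dnajc3, Hsp90b1, Hspa5, Pdia6 and Syvn1. ERSE-II (ATTGG and CCACG 1 base apart, either strand) was in 0.037% of all promoters and in 1 member, Herpud1, and the element UPRE (TGACGTGG, either strand) in 0.676% and in none. A match says only that these letters are present. Starts are those of RefSeq, which can differ from the coordinates of the deposited table, and the Vldlr window belongs to one of 2 RefSeq promoters of that gene. Windows of 10 of these members are shown so that the elements can be read; capitals mark the element, on the strand of the gene, and those of 30 bases lie near or over an annotated exon.
Hspa5, chr2:34772020-34772049, plus strand: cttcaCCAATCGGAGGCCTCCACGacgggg
Hsp90b1, chr10:86705523-86705666, minus strand: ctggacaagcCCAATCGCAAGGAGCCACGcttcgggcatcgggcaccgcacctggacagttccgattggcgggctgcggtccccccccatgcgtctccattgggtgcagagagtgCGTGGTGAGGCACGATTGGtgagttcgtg
Dnajc3, chr14:118937787-118937886, plus strand: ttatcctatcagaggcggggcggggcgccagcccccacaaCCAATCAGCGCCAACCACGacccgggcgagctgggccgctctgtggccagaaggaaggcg
Creld2, chr15:88819480-88819579, plus strand: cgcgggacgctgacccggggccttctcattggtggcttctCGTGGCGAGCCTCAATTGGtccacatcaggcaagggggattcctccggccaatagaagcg
Pdia6, chr12:17266486-17266515, plus strand: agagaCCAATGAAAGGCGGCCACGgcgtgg
Syvn1, chr19:6046476-6046575, plus strand: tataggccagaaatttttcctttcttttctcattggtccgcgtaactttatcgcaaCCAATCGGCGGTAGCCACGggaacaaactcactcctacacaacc
Herpud1, chr8:94386303-94386402, plus strand: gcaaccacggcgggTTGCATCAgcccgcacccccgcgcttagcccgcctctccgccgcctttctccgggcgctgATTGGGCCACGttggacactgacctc
Asns, chr6:7693214-7693243, minus strand: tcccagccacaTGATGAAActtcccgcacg
Chac1, chr2:119351003-119351102, plus strand: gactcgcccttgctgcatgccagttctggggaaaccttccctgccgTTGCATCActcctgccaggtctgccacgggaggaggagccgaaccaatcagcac
Vldlr, chr19:27216809-27216838, plus strand: agcagcaatagTTGCATCAgcgctcctagc

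The changes of members with these elements are given as a description, and 5 of the 6 with ERSE are chaperones described above. Of the 6 with ERSE, Hspa5, Hsp90b1, Dnajc3, Creld2 and Pdia6 fell by 0.28, 0.30, 0.39, 0.35 and 0.27 on the log2 scale, where 21.5% of all genes fell. Syvn1 was not called (-0.01, adjusted p = 0.918). Hsp90b1 holds 2 ERSE, 212 and 107 bases before its start. All 9 chaperones had negative changes, and Pdia4, without ERSE in its window, was called lower too (-0.20). Of the 6 with CARE, 2 fell, Herpud1 among them, Vldlr rose, and Asns, Chac1 and Trib3 were not called, where 21.5% of all genes fell and 21.4% rose. Herpud1 holds both a CARE, 112 bases before its start, and an ERSE-II, 52 bases before it, and was among the members of smallest p. Xbp1 and Ddit3, which fell by 0.72 and 0.63, held none of the 4 elements in these windows.

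At 10 ng/mL no member passed the test, and 0% of 17650 genes did in edgeR. The fit took the libraries as unpaired, though libraries of different letters correlated between these 2 groups. Whether a paired fit would change the result was not tested. Of all genes 844 had an unadjusted p under 0.05, and 2 members were among them, Ddit3 (-0.19) and Creld2 (-0.19). The DESeq2 Wald test called 10 genes and limma-voom 0, none of them members. Members' log2 fold changes ran from -0.20 to 0.16 with a median of -0.07, and 21 of 34 were negative. No member separated the 5 unstimulated from the 5 libraries at 10 ng/mL, where 1.31% of all genes did (0.436% lower, 0.878% higher).

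Between 100 and 10 ng/mL, 13 members fell, 3 rose and 18 were not called, that is 47.1% called where 40.5% of all genes were (20.6% lower, 19.9% higher). This comparison shares its 100 ng/mL libraries with the comparison against unstimulated. The falls of Herpud1 (-0.70, adjusted p = 5.14e-06), Xbp1 (-0.79, adjusted p = 0.000749), Dnajc3 (-0.40, adjusted p = 5.21e-05), Ppp1r15a (-0.42, adjusted p = 5.05e-05), Sel1l (-0.30, adjusted p = 0.00044) and Ddit3 (-0.43, adjusted p = 0.00138) had no overlap between the libraries, where 25.6% of all genes had none (12.9% lower, 12.7% higher). Vldlr (1.43, adjusted p = 0.00698), Sesn2 (0.41, adjusted p = 0.00873) and Edem1 (0.27, adjusted p = 0.0344) rose, and the call of Edem1 was lost under 11 of 24 alternatives.

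Among the regulators 6 of 7 fell between 10 and 100 ng/mL, Atf4 (-0.37, adjusted p = 0.0496) and Trib3 (-0.25, adjusted p = 0.0399) included, where 20.6% of all genes fell. Those 2 calls were lost under 15 and 8 of 24 alternatives, and the count was 3 of 7 without 10 ng/mL A, B or C or without 100 ng/mL A. Of the chaperones Dnajc3 alone was called, and the count was 4 of 9 without 100 ng/mL B or without the 3 libraries, and 2 without unstimulated A. Of the amino acid genes Aars (-0.26, adjusted p = 0.0182) and Psph (-0.35, adjusted p = 0.0483) fell. The call of Psph was lost under 16 of 24 alternatives, and the count was 0 without 100 ng/mL E and 3 without 100 ng/mL B.

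Around the members in the same pathways, 97 genes from 8 lists were tested at 100 ng/mL. Of these, 16 rose, 22 fell and 59 were not called, that is 39.2% called where 42.9% of all genes were (21.4% higher, 21.5% lower), with a median of -0.05. The genes named below are those of smallest p in their list.

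On the side of amino acids, 2 of 18 cytosolic tRNA synthetases rose and 1 fell. Dars rose from 106 ± 7.42 CPM to 138 ± 10.3998 CPM (0.38, adjusted p = 0.000141) and Qars from 137 ± 5.11 CPM to 156 ± 4.22 CPM (0.19, adjusted p = 0.00166); they load aspartate and glutamine. Of 11 amino acid transporters 3 rose and 2 fell. Slc3a2, the heavy chain that leucine and cystine transporters share, fell from 218 ± 7.30 CPM to 116 ± 10.8 CPM (-0.91, adjusted p = 5.79e-08), and the glutamine transporter gene Slc1a5 rose from 47.2 ± 4.48 CPM to 76.9 ± 20.3 CPM (0.70, adjusted p = 0.00233). Of 13 one-carbon, serine, proline and cysteine enzymes 3 fell, among them the mitochondrial folate enzyme Aldh1l2, from 28.2 ± 9.93 CPM to 10.9 ± 3.19 CPM (-1.37, adjusted p = 0.00132), whose exons share 1056 bases with D10Wsu102e on the opposite strand.

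Of 12 eIF2 kinases and eIF2 and eIF2B subunits 5 rose and 1 fell. Eif2b2, a subunit of the exchange factor that recharges eIF2, rose from 91.0 ± 7.92 CPM to 267 ± 36.8 CPM (1.55, adjusted p = 1.73e-08), and Eif2ak4, which encodes GCN2, from 51.2 ± 3.28 CPM to 68.1 ± 8.57 CPM (0.41, adjusted p = 0.000841). Among 9 other stress response targets 4 fell and 2 rose, with Jdp2, a partner of AP-1 and ATF factors, falling from 26.0 ± 1.07 CPM to 15.3 ± 2.47 CPM (-0.77, adjusted p = 7.46e-06) and Eif4ebp1, a restraint on cap-dependent translation, rising from 39.3 ± 1.68 CPM to 63.2 ± 12.4 CPM (0.69, adjusted p = 0.00014).

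On the side of the ER, 6 of 16 other folding factors fell and none rose. Txndc5, a disulfide isomerase, fell from 549.9 ± 117 CPM to 207 ± 62.4 CPM (-1.41, adjusted p = 2.88e-05); its exons share 224 bases with Bmp6 on the opposite strand, which fell too (-2.56, adjusted p = 3.87e-07). Fkbp2, a prolyl isomerase, fell from 16.6 ± 1.60 CPM to 12.1 ± 1.15 CPM (-0.46, adjusted p = 0.000478). Of 11 other degradation genes 2 rose and 4 fell, among them the ubiquitin-conjugating enzyme gene Ube2g2, which rose from 106 ± 6.10 CPM to 155 ± 7.34 CPM (0.54, adjusted p = 6.72e-07), and the channel gene Derl1, which fell from 117 ± 5.01 CPM to 94.9 ± 3.71 CPM (-0.30, adjusted p = 2.29e-05). Of 7 other sensors and proteases 2 rose and 1 fell, with Mbtps2, one of the proteases that cut ATF6, rising from 37.3 ± 3.18 CPM to 49.5 ± 2.46 CPM (0.41, adjusted p = 9.05e-05) and the collagen-linked ER transcription factor gene Creb3l1 falling from 18.5 ± 6.12 CPM to 7.77 ± 1.79 CPM (-1.25, adjusted p = 0.000965).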

How the data were processed

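Transcripts were measured in 15 poly-A libraries, 5 in each of 3 groups named by the labels. The deposited table gives estimated counts (64.3% of all count values, zeros included, are not exactly whole as deposited, with no tolerance) and RPKM per gene; per the submitters' processing notes FastQC, Bowtie2, limma and the build GRCm38 (mm10) were used, without versions. For the counter, its use of strand and its handling of multi-mapping reads, details are not given in the sources used. The library totals that the deposited RPKM imply were 1.86 to 1.92 times the count sums. RPKM is used here to order members by level and as an alternative scale for the amino acid minus chaperone difference (0.09). Estimated counts were rounded to whole numbers and filtered with filterByExpr, leaving 17650 genes. They were tested with edgeR 4.0.16 (quasi-likelihood, TMM, R 4.3.3) in 1 fit over all 15 libraries, p-values adjusted over all genes by Benjamini-Hochberg, and 0.05 as threshold. The members and all gene lists were chosen with earlier results of these data known.

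Values in every library are given for at most 3 called members of smallest p in each role list, 4 in each of the contrasted lists, and for Atf4, Ddit3, Xbp1 and Hspa5; of each pathway list the 2 called genes of smallest p are named, except 1 gene that, like 1 promoter window, is not reported here. Alternatives used DESeq2 1.42.0, limma 3.58.1, other scalings, filters and samples, and each library left out. Libraries of a letter did not deviate together (r from -0.34 to 0.13, over 0.1 in 2 of 15 pairs), so the letters were not used to pair samples. No libraries within a group agreed within sampling noise (smallest chi-square per degree of freedom 8.51). Tested on simulated data for 100 ng/mL against unstimulated (17501 genes), the fit recovered 70.1%, 92.5% and 100% of genes changed 1.5-fold, 2-fold and 4-fold, and for 10 ng/mL (17511 genes) 50.7%, 85.1% and 95.5%. In each simulation 7 unchanged genes were called. Only 200 genes were changed and libraries were drawn independently, whereas 42.9% of genes were called at 100 ng/mL in the data. The rates therefore need not hold for the data. Promoters came from RefSeq on GRCm38.p6, and gene coordinates from the deposited table.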

Additional observations from a re-analysis of the deposited data

Results flagged for a closer look

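In 23 of 114 sets of 5 libraries examined (a member or a list mean in a group), 1 library stood apart from the other 4 by more than 0.71 of the set's range, where chance flags about 1 in 20. The library apart was unstimulated E in 9 sets, 10 ng/mL D in 8, 100 ng/mL B in 5 and unstimulated A in 1. The gene sets are not independent of each other.

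Unstimulated E was the high one for the ER folding genes Hspa5 (1326 CPM, written 1330 to 3 digits), Hsp90b1 (1053 CPM, 1050 to 3 digits), Sdf2l1 (42.4 CPM), Pdia4 (303 CPM), Creld2 (53.9 CPM) and Manf (152 CPM), for Edem1 (145 CPM), and for Sesn2 (87.3 CPM, where the next was 67.5). Library 10 ng/mL D was the high one for Hsp90b1 (992 CPM), Sdf2l1 (35.2 CPM), Pdia6 (440 CPM), Manf (135 CPM), Edem1 (139 CPM) and Syvn1 (88.2 CPM), and the low one for Herpud1 (58.2 CPM, where the next was 74.9). Library 100 ng/mL B was the high one for Hsp90b1 (937 CPM), Pdia4 (265 CPM), Psat1 (92.1 CPM, where the next was 62.1) and Cth (4.88 CPM). In the mean log2(CPM + 1) over the chaperones these 3 libraries stood apart at 7.74, 7.60 and 7.51. Unstimulated A was the low one for Dnajb9 (31.3 CPM, where the next was 47.8).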

How the results depend on the processing

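No called member changed sign under the 24 alternatives, which were run on members' changes at 100 ng/mL and on counts of calls, not on pathway or marker genes. Members not called with values near 0, such as Asns (-0.01 to 0.22) and Shmt2 (-0.13 to 0.10) against unstimulated, did. Against unstimulated, 383 of 432 values of called members stayed past the threshold and 49 did not, and 11 of 383 values of members not called passed it; between 100 and 10 ng/mL, 328 of 384 and 13 of 431. Genes called at 100 ng/mL numbered 7571, and 4976 of 10373 with a filter of 10 CPM in 5 libraries, which tests fewer genes. Genes called at 10 ng/mL numbered 0, 10 with the DESeq2 Wald test, and 0 to 1 with each library left out, 1 without 100 ng/mL B; the cause was not tested. Members called higher at 100 ng/mL numbered 2, 1 with library size alone and 1 to 2 with each library left out; members called lower numbered 16, between 11 (100 ng/mL A left out) and 21 (100 ng/mL B left out). With the letter as replicate block, 7069 genes, 14 lower and 2 higher members and 4 chaperones were called against unstimulated, and 6582 genes, 11 lower and 2 higher members against 10 ng/mL. Libraries of different letters did correlate: unstimulated A to E correlated best with 10 ng/mL E, A, B, C and D (r of 0.49, 0.56, 0.66, 0.67 and 0.79). In the 100 ng/mL group they correlated best with C, C, E, A and B (r of 0.22, 0.25, 0.40, 0.39 and 0.56). Of the 3 libraries apart on the second principal component, 10 ng/mL D and 100 ng/mL B also correlated (r of 0.43). These values are a hint from the data and not from the labels, and no fit with such a pairing was made. The main fit took all libraries as independent. The amino acid minus chaperone difference stayed within the SD of each group.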
